A study of Mus musculus with 6 samples.

Results

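Immediate-early genes are switched on within minutes of a strong stimulus, with no need for new protein, and serve as a record of recent neuronal activity. In neurons, calcium entry and kinase cascades act on the factors CREB and SRF, which are already bound near these genes, and many of the products are themselves transcription factors that set a later gene wave. In the locus coeruleus, the main noradrenaline source of the forebrain, Fos is widely used as a marker of arousal and stress. Handling, anaesthesia and slicing of tissue are also known to induce the same genes.

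The 10 genes described here are Fos, Fosb, Junb and Jund (subunits of the AP-1 transcription factor), Egr1 and Egr3 (zinc-finger factors), Nr4a1 (an orphan nuclear receptor), Npas4 (a neuronal factor induced by calcium), Ier2 (an early-response nuclear protein) and Arc (a cytoskeletal protein of synapses). They were chosen by name as early genes that activity and handling induce, and the choice was made with earlier results of these data known. All 10 were found among the 56923 genes of the deposited table. Bulk poly-A RNA sequencing had been done on locus coeruleus punches from 5xFAD transgenic mice (3 libraries, numbered 64, 65 and 79) and from wild-type (WT) mice (3 libraries, numbered 62, 63 and 66). The 5xFAD line expresses mutant human amyloid precursor and presenilin in neurons from a mouse Thy1 promoter cassette. Per the series' design text, mice were killed under isoflurane and slices were cut in ice-cold buffer before the punches were frozen, a handling that both groups share. Age, sex and batch are not in the labels, nor is it stated whether the numbers stand for different mice, so the p-values measure only the spread between these samples, which may be technical. The study is concerned with hyperexcitable neurons of this nucleus, and the comparison asks whether transcripts that follow activity differ between the genotypes.

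The libraries held 15158712 to 17774759 reads assigned to genes in 5xFAD and 17362733 to 20079349 in WT. Values are normalized counts, that is reads divided by 1 size factor per library. Thy1, whose sequence the transgene cassette carries, read 21875, 16885 and 22211 in 5xFAD and 8755, 7976 and 9090 in WT (libraries in the order named above). It was the 1 gene of 16411 tested that passed in the limma test over all genes (adjusted p = 0.0456). Noradrenergic markers were read in every library, except Hand1, which was at 0 in all 6. Their summed count was 10670 to 15181 in 5xFAD and 7665 to 13809 in WT, lowest in WT 66. Markers of cerebellar granule cells, a neighbouring tissue, were also read, at 5407 to 12451 in 5xFAD and 2996 to 9901 in WT for the 8 genes together, with none at 0. All 8 had a positive limma log2 fold change (median 0.92), as had 6 of 6 markers of cerebellar Purkinje cells (median 0.78). Of either list 0 passed the limma test over all genes. The part of punch content in the fold changes given below was not tested. Ttr, a choroid plexus transcript (picked with its values known), read 1107 in WT 66 and 10.2 to 61.2 in the other libraries.

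The DNA just upstream of these genes is shown because it holds the binding core through which CREB is known to act on early genes. Genes that share the core are set side by side further on, where some of their differences between libraries are no larger than counting gives. Promoter sequence from RefSeq (GRCm38.p6) was matched by symbol for 6 of the 10 genes, Fos, Fosb, Junb, Jund, Nr4a1 and Npas4. The core of the cAMP response element, TGACG on either strand, was present between 250 bases before and 50 bases after the start in 5 of the 6, and in 20.8% of all 32851 promoters of the same length. Capitals mark the core, which reads CGTCA where it lies on the other strand. Each stretch is written 5′ to 3′ on the gene's own strand, and all end before the start site.
Fos, chr12:85473755-85473889, plus strand: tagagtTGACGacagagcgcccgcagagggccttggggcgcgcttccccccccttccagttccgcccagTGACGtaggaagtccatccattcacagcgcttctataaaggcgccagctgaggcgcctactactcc
Fosb, chr7:19310086-19310115, minus strand: gagttgcgggTGACGcaagcgcgggggcgg
Junb, chr8:84978808-84978868, minus strand: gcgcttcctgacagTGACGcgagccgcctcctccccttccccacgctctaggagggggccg
Nr4a1, chr15:101266766-101266816, plus strand: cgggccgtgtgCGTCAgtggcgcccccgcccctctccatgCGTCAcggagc
Npas4, chr19:4990130-4990159, minus strand: cccgttcgaCGTCAcgggaTGACGtcggaa

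In Fos the cores began 129 and 66 bases before the start, in Fosb 60 bases and in Junb 106 bases before it. Nr4a1 held 4 cores, of which the stretch shows those beginning 69 and 40 bases before the start, and in Npas4 they began 179 and 169 bases before it. The full palindrome TGACGTCA was in 0 of the 6 promoters and in 1.79% of all promoters. The EGR motif GCGGGGGCG, which Egr1 and Egr3 proteins bind, was in 2 of the 6, Fosb and Nr4a1, and in 2.91% of all. The serum response element was in 0 of these windows and in 1.63% of all promoters. These matches describe the letters in this window and are no evidence of binding.

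The early genes did not pass the test between the genotypes. In limma on log2(normalized count + 1), 0 of the 10 passed over all genes tested (adjusted p = 0.9995 for each), where 0.00609% of all tested genes passed. At an unadjusted p under 0.05, 1 of the 10 differed, Jund, where 2.32% of all tested genes did (1.27% higher and 1.05% lower in 5xFAD). The limma log2 fold change was positive for 4 genes and negative for 6, with a median of -0.06, against 0.00053 over all tested genes. The split was 5 positive and 5 negative in edgeR, in DESeq2 and in the authors' deposited table, where Fosb had a positive sign. DESeq2 on recovered reads also called 0 of the 10, where it called 0.0244% of all genes, with 0 at an unadjusted p under 0.05, where 0.926% of all genes had one. With edgeR the counts were 0 called, where it called 0.00609% of all genes, and 1 at an unadjusted p under 0.05, where 2.33% had one. In the authors' deposited table, turned to 5xFAD over WT, 0 of the 10 passed, where 0.0106% of genes did, and 0 had an unadjusted p under 0.05, where 0.731% did. Its log2 fold changes ran from -0.16 for Fos to 0.27 for Nr4a1. A bulk punch cannot tell fewer active cells from less transcript per cell.

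**Figure D1:**
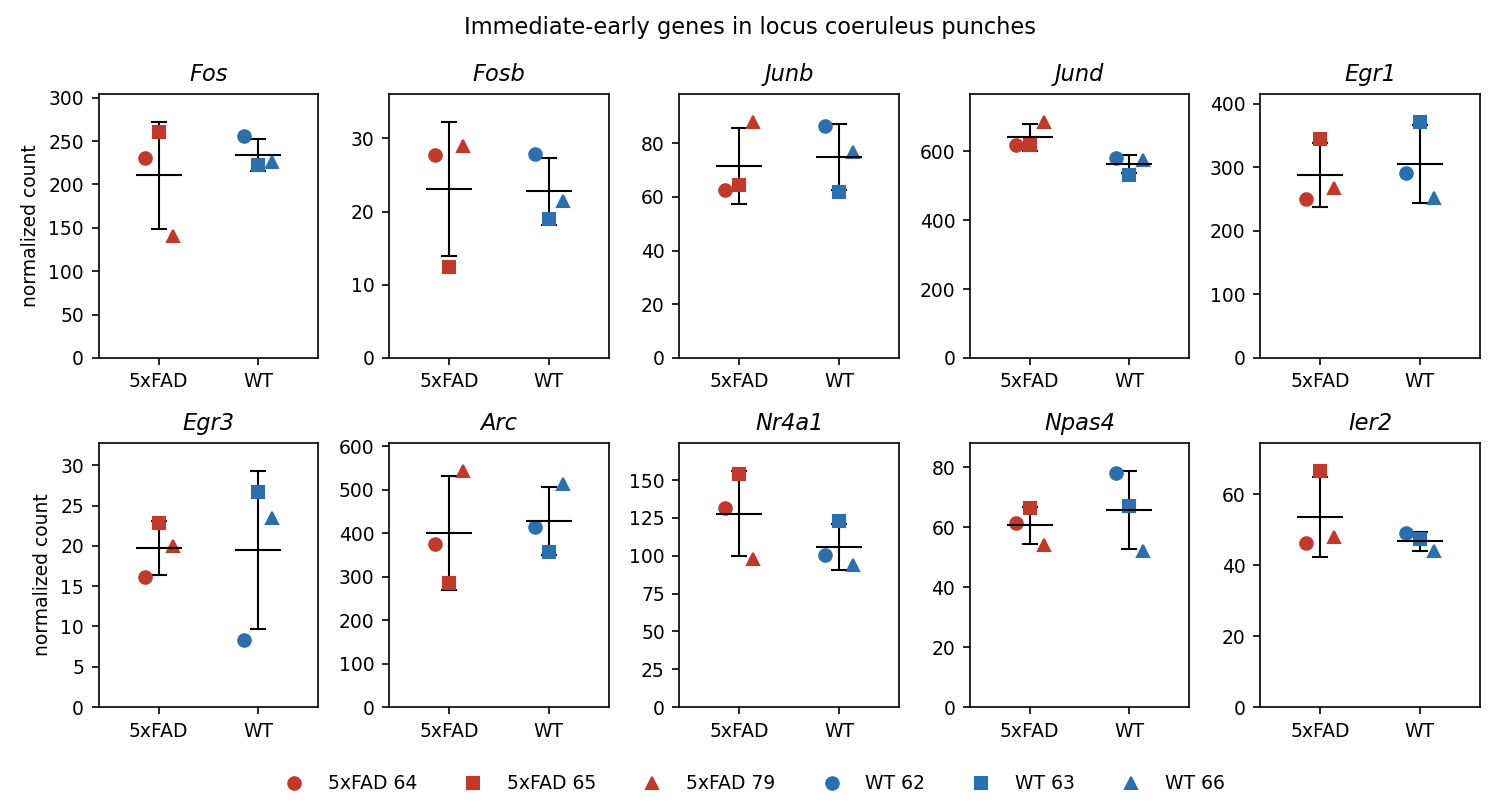
Normalized count of each of the 10 genes (vertical axis from 0, scaled per gene) in the 5xFAD libraries (red) and the WT libraries (blue), with 1 point per library and bars for the mean and SD (n = 3 each). The groups overlap for every gene except Jund, where the 5xFAD libraries lie at 618 to 686 and the WT libraries at 532 to 579.

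Among the AP-1 subunits, Jund, the Jun family member that most cells express at rest, had the smallest p. Its normalized count was 618, 619 and 686 in 5xFAD 64, 65 and 79, against 579, 532 and 575 in WT 62, 63 and 66. Each 5xFAD value was thus higher than every WT value. The means were 641 ± 38.9 in 5xFAD and 562 ± 25.9 in WT (SD, n = 3 each). Its log2 fold change was 0.19 (SE 0.07, with a 95% interval of 0.02 to 0.35, limma unadjusted p = 0.0297, adjusted p = 0.9995). Jund was the 1 of 10 genes whose groups did not overlap, where 7.42% of all tested genes had groups that did not (3.72% higher and 3.7% lower in 5xFAD). Without 5xFAD 79 the limma adjusted p was 0.982 (unadjusted 0.117) and without WT 63 it was 0.819 (unadjusted 0.0919). DESeq2 gave an unadjusted value of 0.0706 for Jund. An antisense gene model, Gm11175, overlaps Jund, but it read at most 5.20 in any library.

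Fos, which pairs with Jun proteins in the classical AP-1 dimer, is the most used activity marker. Fos read 230.0, 260.0 and 141 in 5xFAD 64, 65 and 79, against 255, 222 and 226 in WT 62, 63 and 66. One 5xFAD library, 79, was below all others, and a different one, 65, was the highest of all 6. Fos had a log2 fold change of -0.20 (SE 0.21, with a 95% interval of -0.69 to 0.29, limma adjusted p = 0.9995). Without 5xFAD 79 it was 0.06. The 5xFAD libraries thus lay on both sides of the WT range, though on the upper side by little (260.0 against 255 in WT 62).

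Fosb, whose truncated product is known to accumulate with repeated stimulation, was near the floor of detection, with 24, 12 and 29 reads in 5xFAD 64, 65 and 79 and 30, 22 and 21 in WT 62, 63 and 66. Its normalized counts were 27.7, 12.5 and 29.0 in 5xFAD and 27.9, 18.9 and 21.4 in WT. The lowest library was 5xFAD 65, which had the highest Fos. Fosb had a log2 fold change of -0.05 (SE 0.36, with a 95% interval of -0.86 to 0.76), and it was 0.32 without 5xFAD 65 and 0.099 without WT 62. Gene counts do not separate the truncated form from the full one.

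Junb, an AP-1 subunit that can restrain the activity of Jun, read 62.4, 64.5 and 88.0 in 5xFAD 64, 65 and 79, against 86.4, 61.9 and 76.6 in WT 62, 63 and 66. The highest value of each genotype came from 5xFAD 79 and WT 62, and the ranges of the groups were nearly the same. For Junb the log2 fold change was -0.07 (SE 0.20, with a 95% interval of -0.52 to 0.38), turning to 0.020 without 5xFAD 64 and 0.038 without WT 62. In the GENCODE M21 annotation, the Junb locus overlaps the peroxidase gene Prdx2 on the other strand, and Prdx2 read 2623 to 2900 in the 6 libraries. As no source states the counting strand, the Junb count is uncertain.

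Egr1, a zinc-finger factor linked to synaptic plasticity, read 251, 345 and 267 in 5xFAD 64, 65 and 79, against 292, 372 and 251 in WT 62, 63 and 66. One library of each genotype, 5xFAD 65 and WT 63, stood above the rest, and these 2 libraries also had the highest summed counts of noradrenergic markers (15181 and 13809) and of cerebellar granule markers (12451 and 9901). Summed Purkinje markers were highest in these libraries as well (26524 and 20280). The part of noradrenergic or cerebellar tissue in the Egr1 value was not tested. Egr1 had a log2 fold change of -0.08 (SE 0.17, with a 95% interval of -0.46 to 0.30), and it was 0.013 without 5xFAD 64 and 0.074 without WT 63.

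Egr3, a related factor of the same family, was the lowest of the 10. It had 14, 22 and 20 reads in 5xFAD 64, 65 and 79 and 9, 31 and 23 in WT 62, 63 and 66. Its normalized counts were 16.2, 22.9 and 20.0 in 5xFAD and 8.36, 26.7 and 23.5 in WT. The WT group held both the highest and the lowest library. The limma log2 fold change of 0.15 (SE 0.43, with a 95% interval of -0.81 to 1.10) became -0.34 without WT 62. With all libraries it was 0.014 in edgeR and in DESeq2, and 0.015 in the authors' deposited table.

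Arc, whose protein forms capsids and regulates glutamate receptors at synapses, read 376, 285 and 543 in 5xFAD 64, 65 and 79, against 415, 357 and 513 in WT 62, 63 and 66. It had the widest spread over counting noise of the 10 genes. The 3 libraries with the lowest Arc (5xFAD 65, WT 63 and 5xFAD 64) were those with the highest summed cerebellar granule markers (12451, 9901 and 8666). They also had the highest summed Purkinje markers (26524, 20280 and 12522), and the part of cerebellar tissue was not tested. For Arc the log2 fold change was -0.13 (SE 0.25, with a 95% interval of -0.73 to 0.48), and it was 0.092 without 5xFAD 65 and 0.0089 without WT 66.

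Nr4a1, a nuclear receptor with no known natural hormone, read 132, 154 and 98.0 in 5xFAD 64, 65 and 79, against 100.3, 123 and 93.9 in WT 62, 63 and 66. The 2 highest libraries were 5xFAD, but the third 5xFAD library was below WT 63 and WT 62. With means of 128 ± 28.2 in 5xFAD and 106 ± 15.3 in WT (SD, n = 3 each), the log2 fold change was 0.26 (SE 0.19, with a 95% interval of -0.17 to 0.68), the highest of the 10 with all libraries. It was 0.44 without 5xFAD 79 (limma unadjusted p = 0.0344, adjusted p = 0.982). Without 5xFAD 65 it was 0.11 (limma unadjusted p = 0.573, adjusted p = 0.9994), below the values of Fosb (0.32) and Jund (0.21) in the same fit.

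Npas4, which is restricted to neurons and controls inhibitory synapses, read 61.2, 66.6 and 54.0 in 5xFAD 64, 65 and 79, against 78.0, 67.1 and 52.1 in WT 62, 63 and 66. The 5xFAD values all lay within the WT range. The log2 fold change was -0.10 (SE 0.20, with a 95% interval of -0.55 to 0.35), turning to 0.030 without WT 62.

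Ier2, a nuclear protein of the early growth response, read 46.2, 66.6 and 48.0 in 5xFAD 64, 65 and 79, against 49.2, 47.3 and 43.9 in WT 62, 63 and 66. Only 5xFAD 65 stood apart from the other libraries. The log2 fold change was 0.17 (SE 0.21, with a 95% interval of -0.29 to 0.64), and it was 0.010 without 5xFAD 65.

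**Figure D2:**
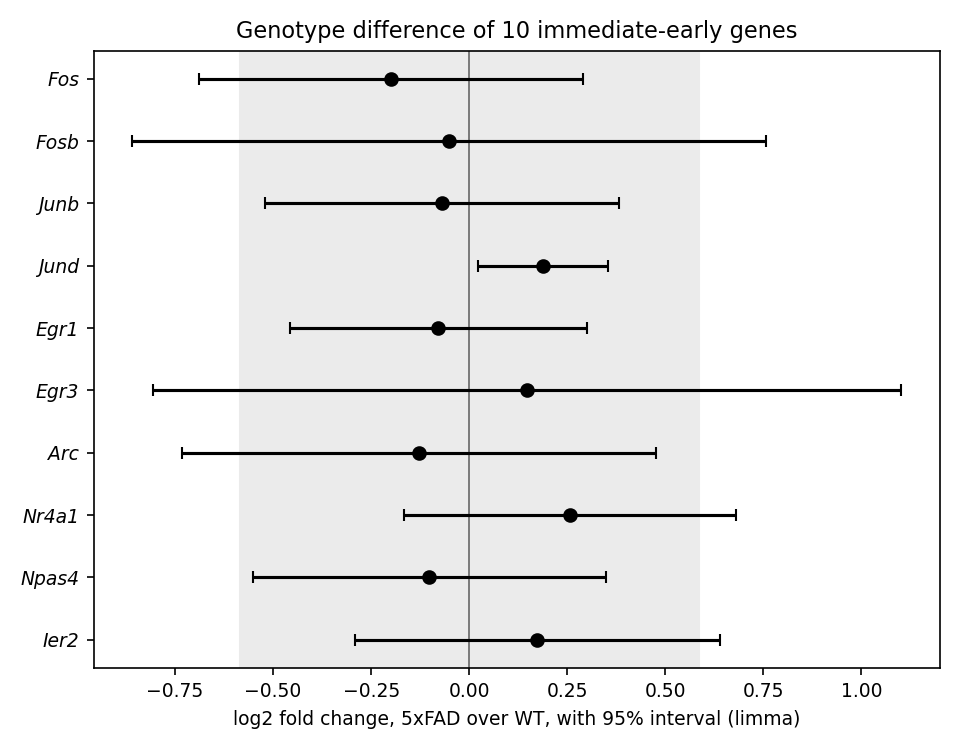
Log2 fold change of each gene, 5xFAD over WT (points), with its 95% interval from limma (bars), on the log2(normalized count + 1) scale. The grey band marks a change of less than 1.5-fold either way; 4 intervals lie inside it, and the interval of Jund (0.02 to 0.35) is the one that does not cross 0.

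The intervals bound the genotype difference unevenly. For Junb, Jund, Egr1 and Npas4, 4 of the 10, the 95% interval lay within 1.5-fold either way, where 71.4% of all tested genes had such an interval. It lay within 2-fold either way for 9 of the 10, the exception being Egr3, where 87.9% of all tested genes had such an interval. Smaller differences are not bounded by these intervals. The median SE of the log2 fold change was 0.20 over the 10 genes and 0.11 over all tested genes.

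Per length, the genes covered a wide range of levels. Normalized counts per kb of exon (exon lengths from GENCODE M21 on GRCm38, an older build than the authors') averaged 361 for Jund over the 6 libraries, at percentile 81.8 of tested genes, with a range of 319 to 411. Arc followed at 136 (93.2 to 178), Fos at 105 (66.9 to 123) and Egr1 at 66.1 (55.9 to 82.9). Nr4a1 was at 43.6 (35.1 to 57.4), Junb at 40.5 (34.2 to 48.6) and Ier2 at 33.0 (28.8 to 43.7). Npas4 was at 17.4 (14.4 to 21.5), Fosb at 6.06 (3.30 to 7.67) and Egr3 at 4.77 (2.04 to 6.50). The percentiles of Fosb and Egr3 were 5.46 and 3.62. The ranges of neighbours in this order overlapped except between Jund and Arc, Ier2 and Npas4, and Npas4 and Fosb.

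**Figure D3:**
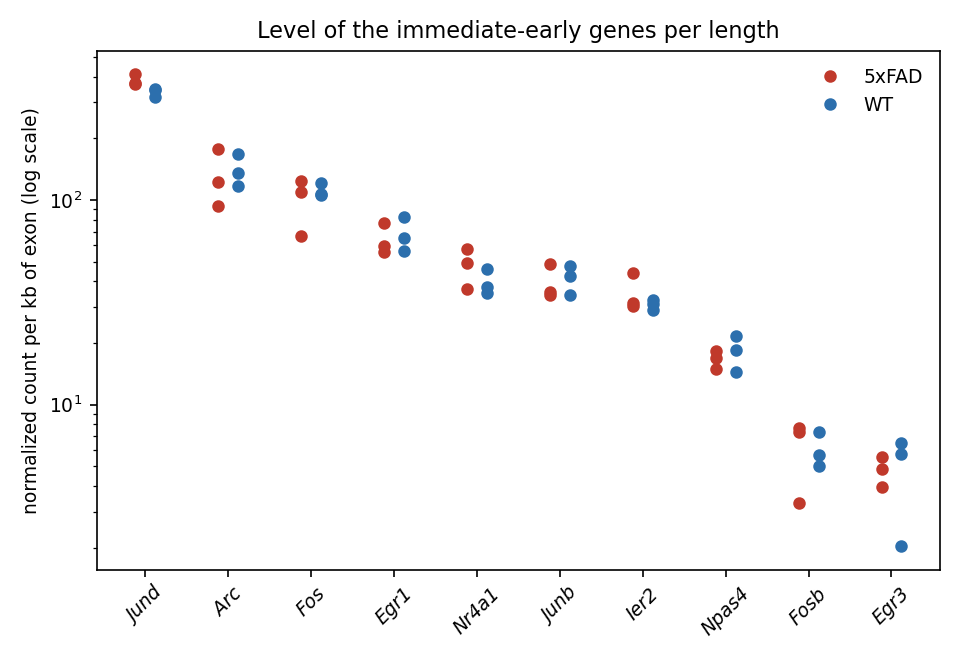
Normalized count per kb of exon (log scale) of the 10 genes, ordered by their mean over all libraries, with 1 point per library, 5xFAD in red and WT in blue. Jund, at 319 to 411, lies above all other genes, and Fosb and Egr3, at most 7.67 in every library, lie below all others.

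The libraries of one genotype differed more in these genes than in most. The SD of log2 values within groups had a median of 0.27 over the 10 genes, against 0.14 over all 16411 tested genes, and it was above that median for 9 of the 10. Jund was the exception, at 0.077 and percentile 23.2. The early genes also have fewer reads, with a median mean normalized count of 95.05 against 319 for all tested genes, and counting alone adds to the SD of low genes. For Ier2 the SD of 0.21 was close to the 0.20 that counting gives, and for Npas4 it was 0.23 against 0.18. For Fos it was 0.34 against 0.096, for Egr1 0.27 against 0.083 and for Arc 0.38 against 0.071. The chi-square per degree of freedom over the 6 libraries, which is 1 where counting is the only noise, was 22.8 for Arc, 9.05 for Egr1, 8.30 for Fos, 4.80 for Jund and 4.68 for Nr4a1. It was 2.33 or less for the other 5 genes and had a median of 2.47 over all tested genes. Unlike the SD within groups, the chi-square also takes in the gap between the genotypes. For Jund the SD within groups was 0.077 against the 0.059 that counting gives.

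The 10 genes did not follow a single order of libraries. The highest library was 5xFAD 79 for Fosb, Junb, Jund and Arc, 5xFAD 65 for Fos, Nr4a1 and Ier2, WT 63 for Egr1 and Egr3, and WT 62 for Npas4. But WT 62 read nearly as high for Fos (255 against 260), Fosb (27.9 against 29.0) and Junb (86.4 against 88.0). For Egr3, WT 66 was close to WT 63 (23.5 against 26.7). Counting error covers these gaps, so the highest library of these genes is not settled. In 5xFAD 65, 7 of the 10 genes lay above their own mean of the 6 libraries, and Fosb, Junb and Arc lay below it. In 5xFAD 79, 5 lay above and 5 below, with Fos at -0.63 and Arc at 0.42 on the log2 scale. Of the 5 genes whose upstream stretches hold the TGACG core, 3 lay above their mean in 5xFAD 65 (Fos at 0.25, Nr4a1 at 0.42 and Npas4 at 0.09). The other 2 lay below it (Junb at -0.17 and Fosb, with 12 reads there, at -0.77). For Npas4 and Junb the deviation was no larger than the SD that counting gives (0.18 and 0.17), so their side is not settled. Of the 45 pairs of genes, Junb and Arc were on the same side of their means in 6 of 6 libraries. Nr4a1 was on the same side as Junb in 0 of 6 and as Arc in 0 of 6. These pairs were named as the extremes of the 45, and whether they vary together was not tested. Some sides rest on deviations below the counting SD, as for Junb in WT 66 (0.08 against 0.17) and Arc in WT 62 (0.04 against 0.07). Averaged over the 10 genes, the deviations cancelled to between -0.025 and 0.030 per library, and genes near to this mean profile, by root mean square distance over the 6 libraries, included the nearly flat Elavl1, Ubap2l, Tra2b and Csnk1a1 (0.0083 to 0.012).

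**Figure D4:**
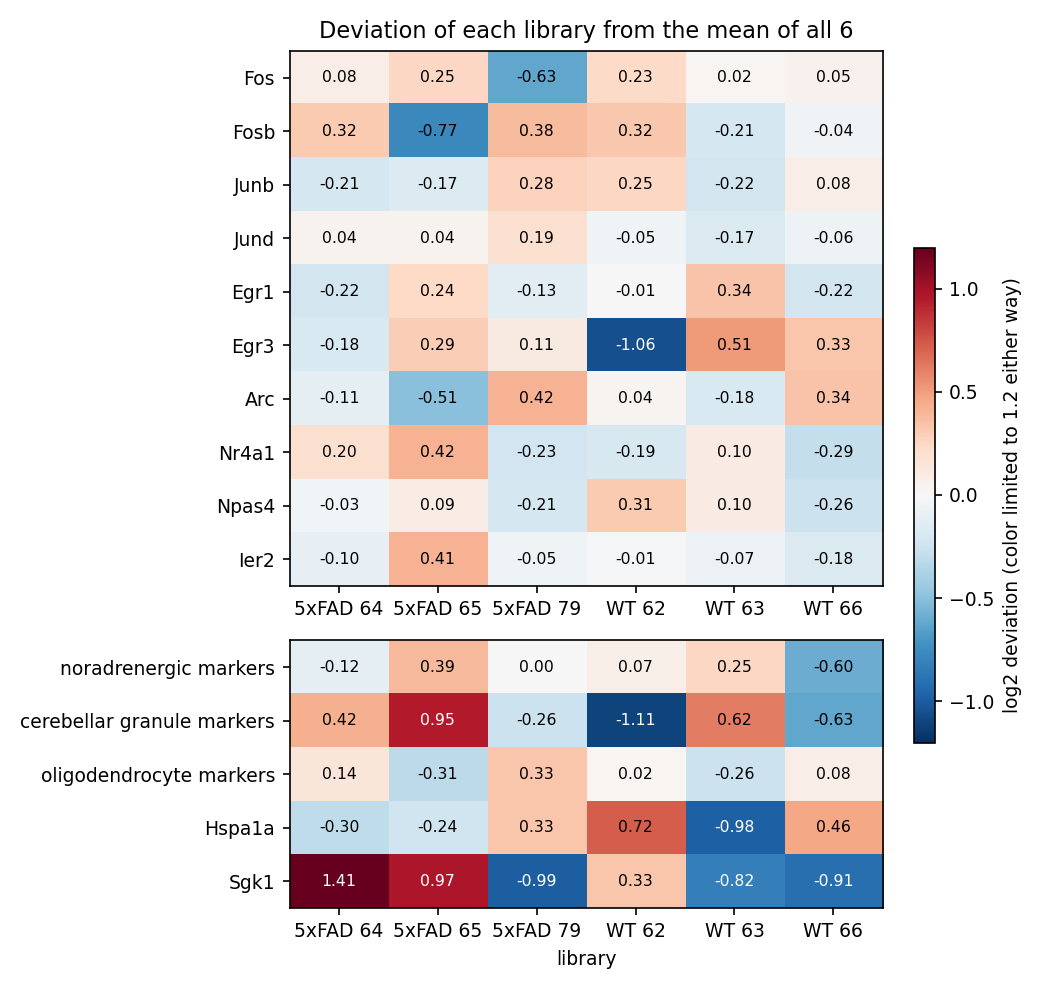
Log2 deviation of each library (columns, 5xFAD left) from the mean of all 6, for the 10 genes (upper block) and for the summed markers of 3 cell types, Hspa1a and Sgk1 (lower block), with red above and blue below the mean. 5xFAD 79 is low for Fos (-0.63) and high for Arc (0.42), and 5xFAD 65 is high for Nr4a1 (0.42) and low for Fosb (-0.77).

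The wider early response was read from lists of genes related to the 10. Of 22 other early transcription factors, 19 passed the filter and 0 passed the limma test over all genes, where 0.00609% of all tested genes did. They had 13 positive and 6 negative log2 fold changes and a median log2 fold change of 0.14. Klf6, a zinc-finger factor, was the 1 of 19 at an unadjusted p under 0.05 and the 1 of 19 whose groups did not overlap, where 2.32% and 7.42% of all tested genes were so. It read 606, 679 and 633 in 5xFAD 64, 65 and 79, against 544, 576 and 588 in WT 62, 63 and 66, with a log2 fold change of 0.17 (SE 0.07, limma adjusted p = 0.9995). Jun, the main partner of Fos, averaged 674 ± 69.6 in 5xFAD and 699.7 ± 42.3 in WT (SD, n = 3 each), with a log2 fold change of -0.06 (SE 0.09). Bhlhe40, a repressor also tied to the clock, had -0.05 (SE 0.07), Per1, a clock gene with an early response to CREB, 0.44 (SE 0.29) and the receptor Nr4a3 0.18 (SE 0.35). Fosl1, Egr2 and Egr4, named after their values were seen, were under the filter, with at most 8 reads in any library.

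Among early effector and feedback genes there was also no call, where 0.00609% of all tested genes passed. Of 25 genes 24 passed the filter, with 14 positive and 10 negative log2 fold changes, a median of 0.04 and 0 past the limma test. Sgk1, a kinase induced by glucocorticoids, read 791 to 4176 in 5xFAD and 837 to 1973 in WT, with a log2 fold change of 0.93 (SE 0.81, with a 95% interval of -1.27 to 3.13). Rheb, a GTPase that activates mTOR, had -0.03 (SE 0.05), Arl5b 0.0083 (SE 0.06) and Rgs2, which shortens G-protein signals, -0.08 (SE 0.07). For 19 of the 24 the interval lay within 1.5-fold either way, where 71.4% of all tested genes had such an interval. Rheb was the 1 of 24 whose groups did not overlap, with lower values in 5xFAD. The gap was slight, with 1718.4 in 5xFAD 64 against 1719.3 in WT 66. Over all tested genes the groups did not overlap for 7.42% (3.7% lower in 5xFAD).

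Genes listed for the late wave had 6 positive and 13 negative log2 fold changes of 19, with a median of -0.05. Of these 0 passed the limma test, where 0.00609% of all tested genes did. The neurofilament gene Nefm averaged 26519 ± 4827 in 5xFAD and 31090 ± 4669 in WT (SD, n = 3 each), with a log2 fold change of -0.23 (SE 0.16). Scg2, a granin of dense-core vesicles, had -0.11 (SE 0.09), the splicing factor Mbnl2 -0.05 (SE 0.07) and Nrn1, a neuritin, -0.03 (SE 0.07). Fbxo33, named after its values were seen, was the 1 of 19 whose groups did not overlap, where 7.42% of all tested genes were so. It had lower values in 5xFAD and a log2 fold change of -0.14 (SE 0.07).

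Kinases, phosphatases and factors upstream of the early genes also gave no call, where 0.00609% of all tested genes passed. Of 35 genes listed 34 were analysed and 33 passed the filter, with 25 positive and 8 negative log2 fold changes, a median of 0.05 and 0 past the limma test. For 31 of the 33 the interval lay within 1.5-fold either way, where 71.4% of all tested genes had such an interval. Crtc2, a CREB coactivator named after its values were seen, was the 1 of 33 whose groups did not overlap (higher in 5xFAD), where 7.42% of all tested genes were so. It had a log2 difference of 0.12 (SE 0.10). The calcineurin subunits Ppp3r1 and Ppp3ca had log2 fold changes of -0.04 (SE 0.07) and 0.03 (SE 0.08). The calcium-dependent kinase Camk2b had 0.04 (SE 0.08).

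Heat-shock genes, which handling and heat induce, had 4 positive and 8 negative log2 fold changes of 12, with a median of -0.025. Of these 0 passed the limma test, where 0.00609% of all tested genes did. Hspa8 had a log2 fold change of -0.04 (SE 0.09), Hsp90aa1 one of -0.02 (SE 0.11), Hsph1 one of 0.0074 (SE 0.20) and Dnaja1 one of -0.02 (SE 0.09). Over all tested genes, 50.2% had a positive and 49.8% a negative log2 fold change.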

How the data were processed

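Per the submitters' processing notes, STAR, RSEM, DESeq2 and build mm39 were used. For tool versions, strandedness and gene annotation the sources used here state nothing. The deposited signal per library is named TPM but is gene counts that the authors scaled with a single size factor for each library: 100% of values were whole multiples of 1 step (tolerance 0.001), which recovered 15158712 to 20079349 reads per library. Per the file headers, the deposited table also gives the authors' log2 fold change, its error, a test score (log2 fold change over error) and p-values, as WT over 5xFAD. Symbols were matched for 52073 identifiers (91.5%).

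The 16411 genes that reached 10 normalized counts in 3 or more libraries were tested in R 4.3.3 by limma 3.58.1 (trended prior, robust). The test ran on log2(value + 1), adjusted by Benjamini-Hochberg at 0.05. The added 1 shrinks differences between low counts, yet for Egr3 limma gave 0.15 against 0.014 in edgeR and in DESeq2. The edgeR 4.0.16 and DESeq2 1.42.0 tests ran on recovered reads. The members, lists, the rule for named genes (list genes at an unadjusted p under 0.05, then up to 4 with the highest mean, and the 5 nearest profiles) and tests were chosen with earlier results of these data known. One gene of the upstream list was not analysed here, and a few genes falling under this rule are not reported here. The alternatives were 2 pseudocounts, 2 filters, 2 scalings, moderation, tools and each library left out.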

Additional observations from a re-analysis of the deposited data

How the results depend on the processing

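No paired analysis was possible because the genotypes share no replicate number. Under 15 alternatives, 0 of the 10 early genes passed over all genes each time. In 134 of 147 values the direction was kept and in 13 it turned. Fosb turned to 0.017 in edgeR and 0.020 in DESeq2. With each library left out in turn, the log2 fold changes ran from -0.38 to 0.064 for Fos, -0.25 to 0.32 for Fosb, -0.22 to 0.038 for Junb, -0.22 to 0.074 for Egr1, -0.34 to 0.44 for Egr3, -0.37 to 0.092 for Arc and -0.26 to 0.030 for Npas4. Jund kept its sign, at 0.14 to 0.21, and so did Nr4a1, at 0.11 to 0.44, and Ier2, at 0.010 to 0.27. The median of the 10, -0.06 with all libraries, ran from -0.019 to 0.034 with a library left out and was above 0 without 5xFAD 64 (0.017), 65 (0.024) or 79 (0.021) or without WT 62 (0.034). The number at an unadjusted p under 0.05 was 0 in DESeq2 and 0 to 1 with a library left out (0 without WT 63). All genes past the threshold numbered 0 without trend and robust moderation, 4 in DESeq2 and 0 to 2 with a library left out, against 1; the cause was not tested. Fosb, Egr3 and Ier2 had no value under the stricter filter. Counting error weighs most on Egr3 and Fosb, with 9 to 31 reads per library.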

Other observations

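Some early or handling genes outside the 10 differed widely between libraries of the same genotype, and except Sgk1 and Nr4a3 they were picked after their values were seen. Sgk1 read 4176, 3087 and 791 in 5xFAD 64, 65 and 79, against 1973, 891 and 837 in WT 62, 63 and 66, a 5.28-fold range. Hspa1b, the inducible heat-shock chaperone, read 244, 291 and 820 in 5xFAD, against 876, 110.1 and 591 in WT, in the same order, a 7.95-fold range. Dusp5, a phosphatase of kinase signalling, read 116, 235 and 63.0 in 5xFAD, against 54.8, 168 and 61.3 in WT. Its order of libraries was that of the summed cerebellar granule markers, which were 8666, 12451 and 5407 in 5xFAD and 2996, 9901 and 4185 in WT. The summed Purkinje markers had the same order, at 12522, 26524 and 7420 in 5xFAD and 4153, 20280 and 5375 in WT. The lower Dusp5 values (63.0, 61.3 and 54.8) were close to each other. The part of either cell type in the Dusp5 value was not tested. The highest library was 5xFAD 64 for Sgk1, WT 62 for Hspa1b and 5xFAD 65 for Dusp5.

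Nr4a3, a relative of Nr4a1, read 258, 537 and 303 in 5xFAD 64, 65 and 79, against 369, 369 and 211 in WT 62, 63 and 66. The summed noradrenergic markers were 10670, 15181 and 11604 in 5xFAD and 12207, 13809 and 7665 in WT, which is the same order of libraries. For Nr4a3, however, WT 62 and WT 63 were nearly equal (368.6 and 369.0), so their order is not settled. The part of the punch's noradrenergic content in the Nr4a3 value was not tested.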
